A study of Mus musculus with 6 samples.

Results

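The Meg3-Rian-Mirg locus is an imprinted stretch of noncoding genes on distal mouse chromosome 12. Its members here were the rows of the deposited ncRNA count table that map, in GENCODE release M21 (GRCm38), to chr12:109500000-109760000, whatever their gene type. They were 72 of the 5880 rows of the table. They comprised 21 lincRNA rows (Meg3, Mirg and B830012L14Rik), 20 rows of Rian, which the annotation calls a processed transcript, 14 snoRNAs, 16 miRNA hairpins and 1 misc RNA. Small RNA was sequenced from exosomes, the small vesicles that cells release into the medium. UD-P19 is the undifferentiated state of P19, an established pluripotent line from a mouse teratocarcinoma, and its exosomes (replicates 1, 2 and 3) came from serum-free medium with N2 supplement. P19N are neurons derived from the same line with retinoic acid and grown in neurobasal medium with glutamine, B27 and N2, to which fluorouridine and uridine were added to stop dividing cells. Their exosomes (replicates 4, 5 and 6) came from cultures 8, 10 and 12 days old, so culture age and replicate cannot be told apart. All values are of RNA from exosome preparations, not of the parent cells.

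The noncoding genes of this locus are expressed from the maternally inherited chromosome. Meg3 is a long noncoding RNA that stands next to the control region of the domain. Rian follows it and hosts box C/D snoRNAs, small nucleolar RNAs that in general guide methylation of the ribose in other RNAs, although most of those encoded here have no known target. Mirg hosts a large cluster of microRNAs. The locus is known for strong expression in brain, and in some pluripotent stem cell lines it is silenced.

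The snoRNAs carried most of the counts that could be tested, so the 7 tested ones are printed as the annotation gives them, 5′ to 3′, as DNA letters of the transcript strand (all plus strand of chromosome 12, GRCm38). Capitals mark the first TGATGA within the 20 bases at the 5′ end and the last CTGA within the 20 bases at the 3′ end, the core letters of the C and D boxes. AF357425 and DQ267100 lie within exons of Rian transcripts, and the other 5 lie past the 3′ end of Rian, outside any annotated gene of the same strand.
AF357425, chr12:109636012-109636084: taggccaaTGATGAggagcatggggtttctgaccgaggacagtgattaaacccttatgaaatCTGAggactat
DQ267100, chr12:109649617-109649688: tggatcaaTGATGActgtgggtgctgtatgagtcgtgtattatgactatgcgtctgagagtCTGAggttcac
AF357428, chr12:109679945-109680013: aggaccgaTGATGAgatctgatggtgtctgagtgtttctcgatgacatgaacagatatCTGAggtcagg
Gm23736, chr12:109680800-109680874: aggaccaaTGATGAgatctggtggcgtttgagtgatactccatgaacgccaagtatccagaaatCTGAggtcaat
AF357341, chr12:109681519-109681593: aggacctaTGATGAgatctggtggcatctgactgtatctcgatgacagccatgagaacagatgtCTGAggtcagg
Gm22981, chr12:109682384-109682458: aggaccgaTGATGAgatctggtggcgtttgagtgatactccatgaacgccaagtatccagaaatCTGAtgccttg
Gm23787, chr12:109684962-109685034: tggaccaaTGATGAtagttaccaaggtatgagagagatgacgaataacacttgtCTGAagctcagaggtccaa

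Both sets of letters were found in 14 of 14 snoRNAs of the locus and in 305 of the 605 snoRNA rows of the table (50.4%), which also hold H/ACA snoRNAs. Gm22981 and Gm23736 start 1584 bases apart and are near copies. They differ at 6 of 75 positions, counted from the 5′ end, with the base of Gm22981 first: G7A, T69G, C71T, T73A, T74A and G75T. Between these they share an unbroken run of 61 bases, from position 8 to position 68, and a read from within it cannot be assigned to either. AF357428 and AF357341 matched at 62 of 75 aligned columns (82.7%). None of the 14 snoRNAs held a unique count, read here as a read that matched 1 transcript only, while 44% of the 425 tested snoRNA rows of the table held none. Which transcript the counts of each snoRNA came from is therefore not certain.

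The libraries held between 454499 and 887460 counts, and all 72 members together held 34, 289 and 70 counts in UD-P19 replicates 1, 2 and 3 and 173, 194 and 110 counts in P19N replicates 4, 5 and 6. Of the 72 rows, 13 had no count in any library, 46 had between 1 and 14 counts in all, and 13 had at least 15 counts and entered the test. The summed counts of the pluripotent list, of which 7 of 15 genes were matched, were 26, 33 and 16 in UD-P19 and 5, 3 and 8 in P19N, and those of the neuron list (10 of 16 matched) were 1, 24 and 12 in UD-P19 and 78, 67 and 22 in P19N. On that list Mir9-1, Mir9-2, Mir9-3 and Mir124a-3 were at 0 counts in every UD-P19 library, but each held no more than 3 counts in P19N in all, and the lncRNA Miat held 1, 10 and 5 counts in UD-P19 and 9, 12 and 4 in P19N. UD-P19 replicate 2 stood apart from the other UD-P19 libraries: it detected 2800 rows against 1679 and 1907, and in 8 of the 13 tested members (61.5%) it was the highest of all 6 libraries in CPM (counts per 1000000 of the TMM-scaled library), against 22.4% of the 1286 rows tested. In UD-P19 replicates 1, 2 and 3 the neuron list was at 2.45, 28.4 and 19.8 CPM and the pluripotent list at 63.7, 39.0 and 26.4 CPM, so that replicates 2 and 3 were both above replicate 1 on the neuron list. Of the 91 counts of the pluripotent list 70 were of Mir17hg, while Mir302a (0, 3 and 0 counts), Mir302b (1, 4 and 0) and Mir367 (1, 6 and 0) were highest in UD-P19 replicate 2. The part of these differences in the results was not tested.

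As a share of all counts, the locus took 74.8, 410 and 91.8 of every 1000000 counts in UD-P19 replicates 1, 2 and 3 (95% Clopper-Pearson intervals of 51.8 to 105, 364 to 460 and 71.6 to 116, counting error only). It took 195, 255 and 187 in P19N replicates 4, 5 and 6 (167 to 226, 221 to 294 and 154 to 225). All P19N libraries were thus above UD-P19 replicates 1 and 3 and below UD-P19 replicate 2. On unique counts the shares were 5.92, 96.0 and 8.41 of every 1000000 unique counts in UD-P19 and 119, 111 and 75.1 in P19N. P19N replicates 4 and 5 thus exceeded UD-P19 replicate 2, and the log2 ratio of the group means was 1.46. This order held only without TMM scaling. In TMM-scaled CPM the unique counts of the locus were at 8.27, 128 and 13.6 in UD-P19 and 79.3, 76.1 and 54.2 in P19N. UD-P19 replicate 2 was then above every P19N library. On all counts the group means were 192 ± 189 in UD-P19 and 212 ± 37.3 in P19N (SD, n = 3 each), a difference far smaller than the spread in UD-P19. Without UD-P19 replicate 2 the UD-P19 mean was 83.3 and the log2 ratio of P19N to UD-P19 rose from 0.14 to 1.35. One transcript, Gm42418, took between 49.1% and 65.9% of all counts in UD-P19 and between 16.3% and 18.2% in P19N, and with its counts left out of the denominator the log2 ratio was −0.72. The number of member rows with a count was 15, 33 and 22 in UD-P19 and 40, 37 and 33 in P19N, and over the whole table it was 1679, 2800 and 1907 in UD-P19 and 2784, 2643 and 2350 in P19N. Counts only in P19N were seen at 22 of the 59 rows with a count (37.3%) and counts only in UD-P19 at 6 (10.2%), against 27.6% and 18.4% of all 4623 such rows of the table, and none of these members held more than 8 counts. In such bulk libraries, fewer exosomes of a kind and less of an RNA per exosome cannot be told apart.

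**Figure D1:**
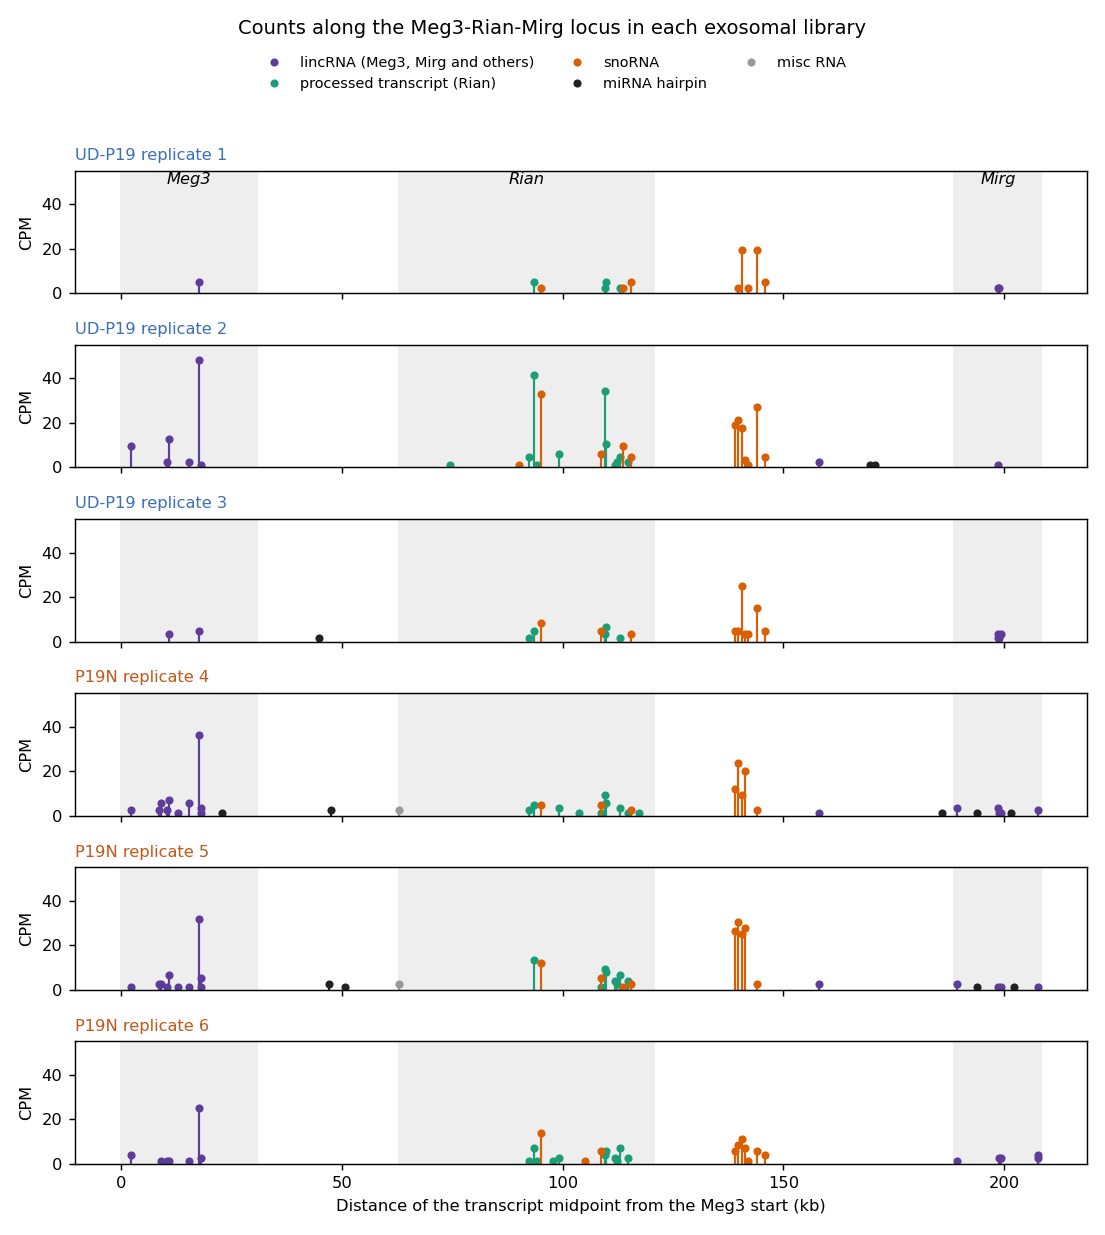
Level of each transcript of the locus in each library. The horizontal axis is the distance of the transcript's midpoint from the start of Meg3 in kb, the vertical axis is CPM, colours mark gene types, and grey bands mark Meg3, Rian and Mirg. UD-P19 replicate 2 shows Meg3 and Rian transcripts that are at or below 6.6 CPM in UD-P19 replicates 1 and 3. AF357341 and Gm23787, past the end of Rian, have counts in every library.

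Of the 13 tested members, 1 rose and 1 fell in P19N, both snoRNAs past the end of Rian, and 11 did not pass the test. The quasi-likelihood F test of edgeR was fitted on all 1286 rows with at least 15 counts, and calls were made at a Benjamini-Hochberg adjusted p of at most 0.05. Over all rows tested, 24% were called, 15% higher and 9.02% lower in P19N, so the members' share of 2 in 13 (15.4%) was no larger than the background. The median log2 fold change of the 13 members (P19N over UD-P19) was −0.25, against 0.21 for all rows. The same members were the only 2 of the 13 whose groups did not overlap in CPM, against 42% of all rows.

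Gm22981 rose in P19N exosomes. Its counts were 0, 3 and 2 in UD-P19 and 17, 21 and 5 in P19N, and every P19N library was above every UD-P19 library. This corresponds to 2.28 ± 1.98 CPM in UD-P19 and 18.2 ± 10.5 CPM in P19N (SD, n = 3 each), with P19N replicate 6 the lowest of its group. The log2 fold change was 2.74 (SE 0.83, adjusted p = 0.0235), and the summed counts of 5 and 43 gave a ratio of 6.87 with a 95% exact counting interval of 2.73 to 22.2. Counting intervals pool the libraries of a group and leave out the spread between them. They also excluded a ratio of 1 for uncalled rows such as the Rian transcript ENSMUST00000182406.1 (0.208 to 0.671). Summed with its near copy Gm23736, Gm22981 lost the call (log2 fold change 1.47, SE 0.79, adjusted p = 0.226). It also lost it without UD-P19 replicate 1 (adjusted p = 0.0685), UD-P19 replicate 3 (0.0636), P19N replicate 4 (0.0865) or P19N replicate 5 (0.131). In these 4 fits the log2 fold change was 2.36, 2.67, 2.68 and 2.33. A further row (ENSMUST00000184468.2), which the study lists under the same symbol but which was not matched to the annotation and is no member, held 0, 4 and 2 counts in UD-P19 and 20, 26 and 6 in P19N, with 0 unique counts.

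Gm23787 fell in P19N exosomes. This snoRNA starts 2578 bases downstream of Gm22981. It held 8, 23 and 9 counts in UD-P19 and 2, 2 and 4 in P19N, or 20.5 ± 6.22 CPM against 3.52 ± 1.78 CPM (SD, n = 3 each), and all P19N libraries were below all UD-P19 libraries. Its log2 fold change was −2.52 (SE 0.68, adjusted p = 0.0129 in edgeR's quasi-likelihood test), and the summed counts of 40 and 8 gave a ratio of 0.16 (counting interval 0.0646 to 0.346). It has no near copy at 90% identity among the matched rows of the table, but none of its 48 counts was unique. It stayed called without UD-P19 replicate 2 (−2.24, SE 0.72, adjusted p = 0.0159). The call was lost without P19N replicate 4 (log2 fold change −2.29, adjusted p = 0.0882) or replicate 5 (−2.36, adjusted p = 0.0808).

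The 3 snoRNAs upstream of Gm22981 in the same run were not called. Gm23736 held 1, 18 and 3 counts in UD-P19 and 20, 23 and 6 in P19N, and AF357428 held 0, 16 and 3 in UD-P19 and 10, 20 and 4 in P19N. In both, UD-P19 replicates 1 and 3 were lower than every P19N library, and UD-P19 replicate 2 lay within the P19N range. Their log2 fold changes were 0.98 (SE 0.73, adjusted p = 0.328) and 0.70 (SE 0.84, adjusted p = 0.56) by edgeR. Without UD-P19 replicate 2 they were 2.37 (SE 0.81, adjusted p = 0.0229, called) and 2.27 (SE 0.96, adjusted p = 0.0625, not called). The call of AF357428 without that library depended on the scaling. It was called with DESeq2 size factors (2.10, SE 0.88) and with total counts only (2.56, SE 0.85), settings chosen after seeing the data. AF357341, the snoRNA with the most counts of the locus, behaved otherwise. It held 8, 15 and 15 counts in UD-P19 and 8, 19 and 8 in P19N, the groups overlapped, and its log2 fold change was −0.44 (SE 0.58) with all libraries and −0.56 (SE 0.59) without UD-P19 replicate 2, with adjusted p of 0.599 and 0.452.

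The remaining snoRNAs past Rian were sparse. Gm25856 held 1, 1 and 2 counts in UD-P19 and 0, 0 and 1 in P19N, and Gm25854 held 2, 4 and 3 in UD-P19 and 0, 0 and 3 in P19N. Neither reached 15 counts, so neither was tested. All 7 snoRNAs of this run summed to 68.2 ± 23.6 CPM in UD-P19 and 74.1 ± 35.0 CPM in P19N (SD, n = 3 each), a near-equal total in which 1 member rose and 1 fell.

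**Figure D2:**
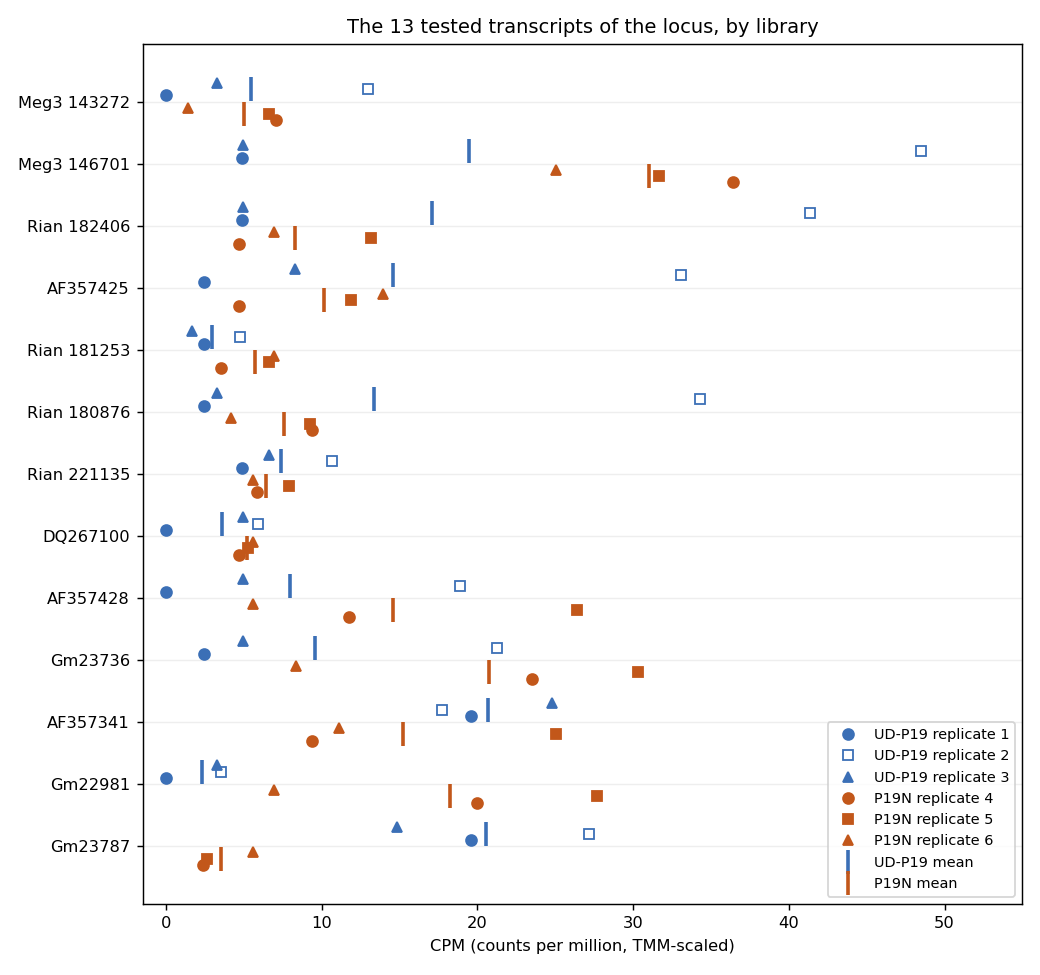
Level of the 13 tested members in each library, in locus order from top to bottom, with transcripts of Meg3 and Rian named by the last digits of their identifiers. The horizontal axis is CPM, symbols are single libraries and vertical ticks are group means (n = 3). The open squares of UD-P19 replicate 2 lie to the right of the other UD-P19 libraries in 12 of 13 members, and the groups separate only for Gm22981 and Gm23787.

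Within Rian the values turned on UD-P19 replicate 2. AF357425, an exonic snoRNA, held 1, 28 and 5 counts in UD-P19 and 4, 9 and 10 in P19N. The single-exon Rian transcript that contains it (ENSMUST00000182406.1, chr12:109632798-109636273) held 2, 35 and 3 counts in UD-P19 and 4, 10 and 5 in P19N. In both rows UD-P19 replicate 2 was higher than all other libraries, and the groups overlapped. The log2 fold changes were −0.63 (SE 0.76, adjusted p = 0.563) for AF357425 and −1.13 (SE 0.80, adjusted p = 0.306) for the Rian transcript by edgeR, and both turned positive without that library, at 0.78 (SE 0.80) and 0.72 (SE 0.82), still uncalled. AF357425 also has a near copy, Gm22962, at another place in the genome.

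DQ267100, which lies in exons of the Rian transcripts ENSMUST00000180876.2 and ENSMUST00000221135.1, held 0, 5 and 3 counts in UD-P19 and 4, 4 and 4 in P19N. Its log2 fold change was 0.34 (SE 0.88, adjusted p = 0.81). The deposited exact counts, read here as reads that matched without a mismatch, were 6 of 20 counts for DQ267100 and 8 of 30 for ENSMUST00000221135.1, which contains it. They were 24 of 50 for ENSMUST00000180876.2, and between 63.2% and 85.4% of the counts for the other 10 tested members. The rows that share DQ267100 were thus the lowest 3 of the 13 in exact matches. ENSMUST00000221135.1 held 2, 9 and 4 counts in UD-P19 and 5, 6 and 4 in P19N (log2 fold change −0.25, SE 0.70, and 0.13 without UD-P19 replicate 2).

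The other snoRNAs within Rian were not tested. Gm26922 held 1, 8 and 0 counts in UD-P19 and 0, 1 and 0 in P19N, DQ267102 held 2, 4 and 2 in UD-P19 and 2, 2 and 0 in P19N, Gm24564 and Gm24895 held 1 count each, and DQ267101 held none.

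Rian as a whole, its 20 rows summed, held 6, 93 and 11 counts in UD-P19 and 29, 37 and 27 in P19N. UD-P19 replicate 2 alone stood above the P19N libraries, and UD-P19 replicates 1 and 3 stood below them. In CPM the means were 47.6 ± 54.0 in UD-P19 and 40.2 ± 7.7 in P19N (SD, n = 3 each). With rows summed by gene over the whole table, the log2 fold change of Rian was −0.36 (SE 0.61, adjusted p = 0.699 in edgeR), and 1.26 without UD-P19 replicate 2 (SE 0.52, adjusted p = 0.0538). Among its 2 other tested transcripts, ENSMUST00000180876.2 held 1, 29 and 2 counts in UD-P19 and 8, 7 and 3 in P19N (log2 fold change −0.91, SE 0.83, and 1.33 without UD-P19 replicate 2), and ENSMUST00000181253.8 held 1, 4 and 1 in UD-P19 and 3, 5 and 5 in P19N (0.82, SE 0.86). Neither was called with or without UD-P19 replicate 2. No row of Rian held a unique count.

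Meg3 (chr12:109541001-109571726, 11 rows) gave the clearest contrast between libraries. Its summed counts were 2, 65 and 5 in UD-P19 and 58, 42 and 27 in P19N, or 4.9, 76.8 and 8.3 CPM against 68.2, 55.4 and 37.6 CPM. UD-P19 replicates 1 and 3 were below every P19N library and UD-P19 replicate 2 above every one. The summed gene had a log2 fold change of 0.68 (SE 0.66, adjusted p = 0.456 in edgeR) with all libraries and of 2.94 (SE 0.60, adjusted p = 0.000246) without UD-P19 replicate 2. These fits by gene were not planned in advance. Of the unique counts, Meg3 held 1, 38 and 3 in UD-P19 and 28, 22 and 15 in P19N, the same order of libraries. In TMM-scaled CPM of unique counts UD-P19 replicate 2 also led, at 116 against 63.5, 62.0 and 47.8 in P19N. That lead was lost without TMM scaling. As a share of all unique counts, UD-P19 replicate 2 (38 of 437644) was below P19N replicates 4 (28 of 295192) and 5 (22 of 243964). It stayed above P19N replicate 6 (15 of 226444).

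A single Meg3 transcript, ENSMUST00000146701.7 (5 exons, 14548 bases), held 119 of the 199 counts and 100 of the 107 unique counts of the gene. Its counts were 2, 41 and 3 in UD-P19 and 31, 24 and 18 in P19N, and the groups overlapped only through UD-P19 replicate 2. Its log2 fold change was 0.58 (SE 0.71, adjusted p = 0.571 by edgeR) with all libraries and 2.61 (SE 0.66, adjusted p = 0.003) without that library. It was the only member that could be tested on unique counts, with a log2 fold change of 0.55 (SE 0.86, adjusted p = 0.68) against 24.9% of 510 rows called. Without UD-P19 replicate 2 the value on unique counts was 3.05 (SE 0.59, adjusted p = 0.00286 by edgeR). The second tested transcript, ENSMUST00000143272.7, held 0, 11 and 2 counts in UD-P19 and 6, 5 and 1 in P19N (−0.29, SE 0.92, adjusted p = 0.841, and 1.32 without UD-P19 replicate 2). Among the sparse ones, ENSMUST00000129245.7 held 0, 8 and 0 counts in UD-P19 and 2, 1 and 3 in P19N. ENSMUST00000143836.7 held 0, 2 and 0 in UD-P19 and 5, 1 and 1 in P19N. In contrast to the main transcript, ENSMUST00000124106.7 was at 0 in every UD-P19 library and held 5, 2 and 1 counts in P19N, and ENSMUST00000166636.8 held 0, 1 and 0 in UD-P19 and 3, 4 and 2 in P19N.

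**Figure D3:**
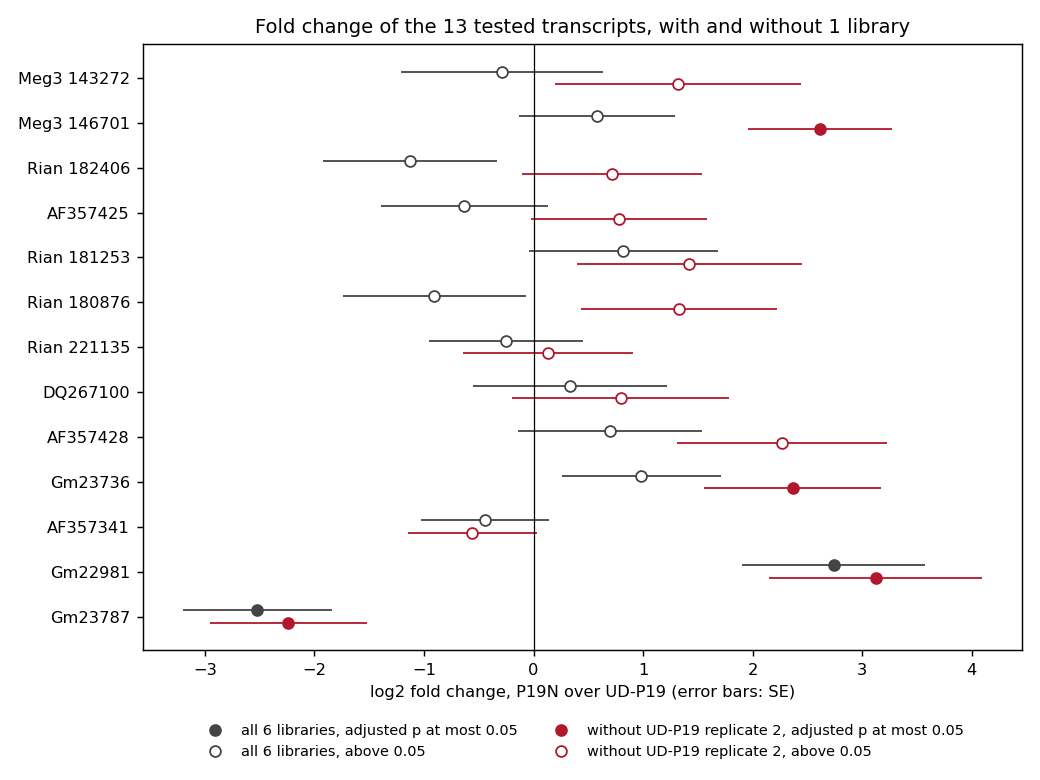
Log2 fold change of the 13 tested members, P19N over UD-P19, from edgeR's quasi-likelihood fit with all 6 libraries (grey) and without UD-P19 replicate 2 (red). Error bars are SE and filled points have an adjusted p of at most 0.05. With all libraries 6 of 13 values were above 0, and without UD-P19 replicate 2 it was 11 of 13, with only AF357341 and Gm23787 below 0. That library was the highest of the UD-P19 libraries in 12 of these 13, so a rise of most values follows from leaving it out.

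Without UD-P19 replicate 2, 3 of 13 members were called higher (Gm22981, Gm23736 and the main Meg3 transcript) and 1 lower (Gm23787). Over all rows, 25.7% were then called higher and 15.6% lower, so the members' share of calls was again below that of the table. The median over the 13 members was 1.32, against 0.54 for all rows. UD-P19 replicate 2 was the highest UD-P19 library in 12 of the 13 members, so leaving it out was bound to raise most of their values. Each library was left out in turn, but this fit is given by row because of the values seen.

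Mirg (chr12:109729764-109749460, 9 rows) was sparse in every library, and no row reached 15 counts. Its summed counts were 2, 1 and 6 in UD-P19 and 10, 5 and 10 in P19N. Here UD-P19 replicate 2 was the lowest library, not the highest, and the groups overlapped only through UD-P19 replicate 3 and P19N replicate 5. The summed gene had a log2 fold change of 1.00 (SE 0.81, adjusted p = 0.371 in edgeR), which was 0.44 without UD-P19 replicate 2 and 1.94 without UD-P19 replicate 3, uncalled in both. Its transcripts ENSMUST00000182074.1 and ENSMUST00000183084.1 were at 0 in UD-P19 and held 3, 2 and 1 and 2, 1 and 3 counts in P19N. The longer ENSMUST00000183144.7 held 0, 1 and 2 in UD-P19 and 3, 1 and 0 in P19N, and ENSMUST00000182185.7 held 1, 0 and 1 in UD-P19 and 1, 0 and 2 in P19N. None of the 9 rows held more than 7 counts. B830012L14Rik, a lincRNA between the snoRNAs and Mirg, held 0, 2 and 0 counts in UD-P19 and 1, 2 and 0 in P19N, all of them unique.

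The miRNA hairpins were near the limit of detection. The 16 hairpins together held 0, 2 and 1 counts in UD-P19 and 6, 5 and 0 in P19N, with at most 2 counts at any hairpin. The ratio of the sums was 2.93 with a counting interval of 0.774 to 16.4, so no difference was detectable at this depth. Mir3070a and Mir3070b, each with 2 counts, are shown because neither held a unique count and their arms are alike: they encode the same 5p arm, and 3p arms with the same seed (bases 2 to 8, in capitals, sequences and positions from RefSeq, GRCm38.p6).
miR-3070-5p, chr12:109587959-109587981 and chr12:109588608-109588630: aGCCCCUGaccuugaaccuggga
miR-3070-3p of Mir3070a: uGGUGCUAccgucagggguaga
miR-3070-2-3p of Mir3070b: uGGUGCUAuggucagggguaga
The counts of Mir3070a were both in P19N replicate 5 and those of Mir3070b both in P19N replicate 4. Mir485, within an exon of Mirg, held 1 count in each of those libraries. Mir127, Mir134, Mir370, Mir431 and Mir1906-1 had 0 counts in every library, which allows up to 3 counts, or between 3.53 and 7.35 CPM depending on the library. The annotation places 66 miRNA genes in the interval, and those beyond these 16 were not analysed here. The misc RNA Gm27350, at the 5′ end of Rian, held no count in UD-P19 and 2, 2 and 0 in P19N.

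**Figure D4:**
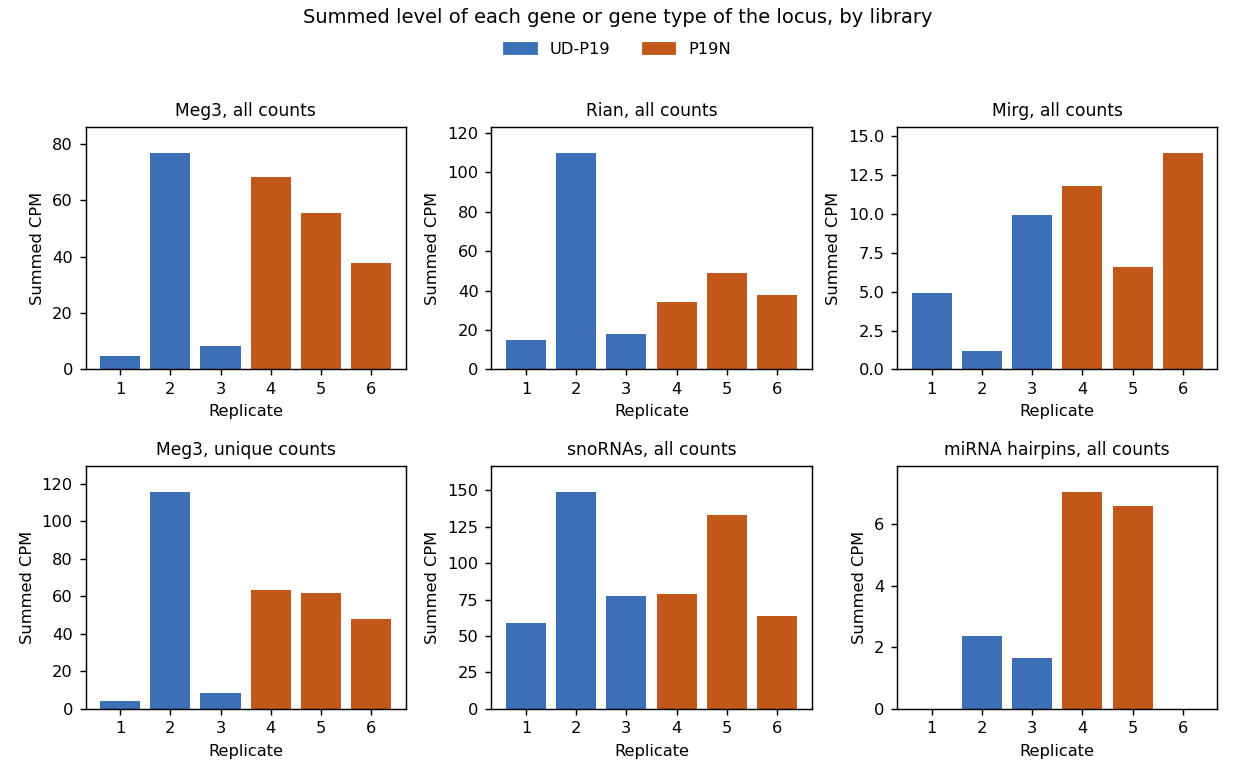
Summed level of Meg3, Rian, Mirg, the snoRNAs and the miRNA hairpins in each library, in CPM, with 1 bar per library. In Meg3 and Rian UD-P19 replicate 2 (76.8 and 109.9 CPM) exceeds all P19N libraries while UD-P19 replicates 1 and 3 are at most 18.2 CPM, and in Mirg UD-P19 replicate 2 is the lowest library.

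By gene type, the lincRNA rows summed to 36.1 ± 38.6 CPM in UD-P19 and 65.7 ± 14.8 CPM in P19N, and the snoRNA rows to 95.1 ± 47.6 CPM and 92.0 ± 36.5 CPM (SD, n = 3 each). The snoRNA sums were 58.8, 149 and 77.6 CPM in UD-P19 and 78.7, 133 and 64.0 CPM in P19N, and their groups overlapped. The log2 ratios of the group means were 0.86 for the lincRNA rows, −0.25 for Rian, −0.05 for the snoRNAs and 1.77 for the hairpins. Without UD-P19 replicate 2 they were 2.23, 1.29, 0.43 and 2.46. With total counts only, that is without TMM scaling, they were 0.78, −0.33, −0.03 and 1.68. With Gm42418 also left out of all counts they were −0.0394, −1.13, −0.95 and 0.76. The hairpin ratio on TMM-scaled unique counts was 0.27. UD-P19 replicate 2 exceeded the mean of the other UD-P19 libraries 11.7-fold in Meg3, 6.69-fold in Rian, 4.13-fold in the snoRNAs within Rian and 1.72-fold in the snoRNAs past its end. Per length, in P19N, the main Meg3 transcript was at 2.13 CPM per kb, while Gm23736 was at 276 and Gm22981 at 243 CPM per kb. Counts in small RNA libraries need not scale with transcript length, so these values are not relative abundances. No count of these snoRNAs was unique, against 100 of 119 for the Meg3 transcript.

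Another imprinted snoRNA cluster, the Snhg14 locus on chromosome 7, is set beside it. Of its 132 tested rows, 60 were higher and 1 lower in P19N, with a median log2 fold change of 1.61, and its summed level was between 1748 and 3020 CPM in UD-P19 and between 4389 and 5914 CPM in P19N. Of the 7 tested snoRNAs of the Meg3-Rian-Mirg locus, 1 was higher and 1 lower, with a median of 0.34. This share called (28.6%) was near the 24.0% of all rows tested. The Snhg14 rows are multicopy and share reads. On TMM-scaled unique counts the order of the groups was the opposite, with 2713, 1775 and 1535 CPM in UD-P19 and 646, 842 and 1380 CPM in P19N. Without that scaling the groups overlapped as shares of all unique counts. The locus then held 656 of 337562, 583 of 437644 and 563 of 594544 unique counts in UD-P19. In P19N it held 285 of 295192, 299 of 243964 and 433 of 226444. Of the 19 rows tested on unique counts 2 were higher and 1 lower, with a median log2 fold change of 0.95. With TMM scaling the summed level and the median row thus differed in direction. Of the 294 tested snoRNA rows outside both loci, 16 were higher and 46 lower (median −0.37). All 383 such rows, tested or not, summed to 37895 CPM in UD-P19 replicate 2 against 81487 and 84748 CPM in replicates 1 and 3. This was the opposite of the order seen at Rian. Among imprinted noncoding genes elsewhere, a list of 13 of which 6 were matched, 2 of 10 tested rows were higher and none lower, with a median log2 fold change of −0.66 that turned to 0.43 without UD-P19 replicate 2. Of these rows 8, including both that were called, were of Snhg14 itself. Kcnq1ot1, the long noncoding RNA of the imprinted domain of that name, showed the pattern of Rian, with 6, 91 and 11 counts in UD-P19 and 21, 22 and 20 in P19N (with rows summed by gene, log2 fold change −0.90, SE 0.62, adjusted p = 0.29 by edgeR). Without UD-P19 replicate 2 its value was 0.70 (SE 0.56, adjusted p = 0.318 by edgeR). Snhg14 had UD-P19 replicate 2 (175 CPM) above replicates 1 and 3 (85.7 and 54.5 CPM) but below all P19N libraries (222, 253 and 210 CPM). Nespas had its lowest level, 1.18 CPM, in UD-P19 replicate 2. Peg13 was highest in that replicate, with 0, 11 and 2 counts in UD-P19 and 0, 0 and 2 in P19N. The log2 fold change of Peg13 was −2.68 (SE 1.25) with all libraries and −1.04 (SE 1.52) without UD-P19 replicate 2, uncalled in both. Without that library the Snhg14 locus had 82 rows higher and 2 lower (median 2.64), the 7 snoRNAs had 2 higher and 1 lower (median 0.79), and the snoRNA rows outside both loci had 24 higher and 100 lower (median −0.60). The share of the 7 snoRNAs then called (42.9%) was near the 41.2% of all rows. The difference between the locus and these sets was not tested.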

How the data were processed

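The members and gene lists were chosen with earlier results of these data known. Small RNA libraries from exosomes were trimmed and paired by the authors, matched in CLC Genomics Workbench to noncoding transcripts (GRCm38), and deposited as raw counts per transcript. How multiply matching reads and strand were handled is not given in the sources used here. The deposited columns of unique and exact counts are not defined there, and their readings above were assumed. The authors' means, fold changes and p-values were not used. Identifiers were matched to GENCODE M21 (5773 of 5880 rows). Rows with a total of at least 15 counts (1286) were fitted in edgeR 4.0.16 (R 4.3.3, TMM, quasi-likelihood F test without covariates, Benjamini-Hochberg over all of them), after tests on simulated data. CPM are per 1000000 of TMM-scaled counts, and 0 was read as up to 3 counts. The rule for named members took every row of at least 15 counts, the rows of Meg3, Rian and Mirg, and the 5 leading hairpins. Many of those rows below 15 counts are given only within sums, and the untested snoRNAs, B830012L14Rik, Gm27350 and the hairpins at 0 were named outside the rule, with their values seen. Near copies were joined at 90% identity over 80% of length with BLAST 2.17.0. Alternatives were other filters, scalings and tests (DESeq2 1.42.0), unique counts, summed near copies and libraries left out in turn. Sums over the whole locus, by gene type or over groups of snoRNAs were given no p. Rows summed by gene, as for Meg3, Rian and Mirg, and summed near copies were tested in fits over the whole table. The fits by gene were not planned in advance, so their p-values are exploratory. P-values set the difference of the groups against the spread between 3 preparations per group, which in P19N includes culture age. Cell state, medium and fluorouridine treatment differ together between the groups and cannot be told apart.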

Additional observations from a re-analysis of the deposited data

How the results depend on the processing

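No paired analysis was possible because the groups share no replicate number. The count of members called higher in P19N, 1 in the report, was 0 with edgeR's filterByExpr (3 members tested), 0 on unique counts (1 tested) and 0 with near copies summed, and ranged from 0 to 3 with 1 library left out. The count called lower, also 1, was 0 with filterByExpr and 0 on unique counts, and ranged from 0 to 1 with 1 library left out. With filterByExpr and on unique counts neither Gm22981 nor Gm23787 was tested, so these settings do not bear on their calls. Other filters, scalings and tests kept both counts at 1, though DESeq2 size factors moved the median of all rows by −0.17 and total counts only by 0.12. Chosen after seeing the data, leaving out UD-P19 replicate 2 gave 4 of 13 higher with DESeq2 size factors (331 of all 1286 rows) and 4 with total counts only (435 of 1286), and on unique counts, with 1 member tested, 1 higher (ENSMUST00000146701.7, 3.05) and 0 lower (119 of all 510 rows higher). With 1 library left out, the log2 fold change ranged from −0.85 to 1.32 for ENSMUST00000143272.7, −0.13 to 2.61 for ENSMUST00000146701.7, −1.82 to 0.72 for ENSMUST00000182406.1, −1.26 to 0.78 for AF357425, −1.64 to 1.33 for ENSMUST00000180876.2, −0.58 to 0.13 for ENSMUST00000221135.1, −0.0804 to 0.79 for DQ267100, −0.00099 to 2.27 for AF357428 and −0.76 to 1.26 for Rian summed by gene. The top of each range, and each change to a positive sign, came without UD-P19 replicate 2. Without that library, DESeq2 size factors and total counts only gave 1.16 and 1.60 for ENSMUST00000143272.7, 0.57 and 1.03 for ENSMUST00000182406.1, 0.64 and 1.11 for AF357425, 1.17 and 1.63 for ENSMUST00000180876.2, and −0.0261 and 0.44 for ENSMUST00000221135.1, whose change of sign was thus lost with DESeq2 size factors. The log2 ratio of the locus share, which is not TMM-scaled, went from 0.14 to 1.46 on unique counts. It ranged from −0.24 to 1.35 with 1 library left out. That range was 0.42 to 2.23 for lincRNA rows and −0.67 to 1.29 for Rian. With TMM scaling the ratio of the lincRNA rows went from 0.86 to 0.49 on unique counts. The unique counts of the whole locus were then at 128 CPM in UD-P19 replicate 2, against 79.3, 76.1 and 54.2 CPM in P19N. Over all counts without Gm42418, and without TMM scaling, the ratio was −0.95 for the snoRNAs and −0.0394 for the lincRNA rows, whose sign turned. It was −1.13 for Rian and 0.76 for the hairpins, and the hairpin ratio was 0.27 on TMM-scaled unique counts. The cause was not tested. A count of 0 allows 3 counts, between 3.53 and 7.35 CPM by library, and no row of Mirg and no hairpin reached the 15 counts needed for a test.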
